A study of Mus musculus with 6 samples.

Results

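Genes of 10 transcription factors of mesenchymal identity and of the epithelial-to-mesenchymal transition (EMT) were examined in a list of accessible chromatin intervals of Ezh2-null mouse fibroblasts. The genes were chosen by name, not by a measured value, but with earlier results of these data known. They were Twist1, Twist2, Prrx1, Prrx2, Snai1, Snai2, Zeb1, Zeb2, Tcf21 and Ebf1. The RefSeq table used for positions held 21887 protein-coding genes. All 10 were found in that table. Accessibility was profiled with ATAC-seq on 50000 whole cells per library. In this assay a transposase cuts and tags DNA where chromatin is open. The series held 2 Ezh2 -/- libraries, 2 libraries of Ezh2 -/- cells carrying retroviral pMSCV-Ezh2, and 2 wild-type libraries. All 6 came from c-myc-immortalized embryonic fibroblasts of one line, called A or C2, so no value speaks for another line. The values below come from the single list of the Ezh2 -/- cells. The other groups were not analysed here, so nothing below compares genotypes. Replicates have no separate values in this list, which leaves no replicate error and no test to report, and read depth is unknown.

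EMT is the process in which cells lose epithelial junctions and gain migratory, fibroblast-like properties. The Snail, Zeb and Twist proteins are its best known drivers: they bind short E-box sequences and repress junction genes such as Cdh1, which encodes E-cadherin. The Prrx homeobox proteins mark limb and craniofacial mesenchyme, Tcf21 the mesenchyme of heart, kidney and other organs, and Ebf1 is known for B-cell development and is also used in stromal and fat-forming cells. Many genes of such developmental regulators are targets of Polycomb repressive complex 2, whose catalytic subunit is encoded by Ezh2.

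The list held 21835 intervals from 19215 called regions. A called region has a total signal, the area under its coverage, and a maximum signal, the height of its coverage, both in the unit of the authors. The medians over called regions were 29082 for the total and 27 for the maximum. A percentile below is the percentage of called regions, or of intervals for widths, with a lower value. Of the called regions, 2148 appeared as 2 or more intervals with the same values, and a piece then carries the signal of its whole region. Some regions listed as 1 interval were also shorter than their values require: the maximum lay outside, or the total exceeded maximum times width. Widths and mean signals below are those of the listed intervals. Among 7 fibroblast marker genes 5 had an interval within 1000 bp of a gene end, against 47.4% of all protein-coding genes. Pdgfra (which had one at an annotated start inside the gene) and Thy1 were the exceptions. Among 7 epithelial marker genes 1 did, Krt8. The fibroblast markers are also among the mesenchymal effectors listed below, and the epithelial markers among the epithelial genes, so they are not separate evidence.

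At 7 of the 10 factor genes an interval lay within 1000 bp of a gene end (70%), against 47.4% of all protein-coding genes. These were Twist1, Twist2, Prrx1, Prrx2, Snai1, Snai2 and Ebf1. Zeb1, Zeb2 and Tcf21 had none there. A gene end is the lower or the upper end of the gene by coordinate, so a 3′ end also counts, and above and below a gene mean higher and lower coordinates. Zeb2 nevertheless had intervals at internal annotated starts. By annotated transcription start, known for 8 of the 10 genes from the RefSeq promoter windows, 7 of 8 had an interval within 1000 bp, against 46.9% of genes with a known start. Tcf21 was the exception, and Snai2 and Zeb1 had no entry. An interval overlapped the gene itself at 8 of the 10, against 52.8% of all protein-coding genes, and Zeb1 and Tcf21 had none. With 10 genes and no test, these counts only describe the genes named.

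The start windows of 5 of these genes are shown because they span the range of what was found: Twist1 and Snai1 with CpG-rich, accessible starts, Prrx1 with an accessible start poor in CpG, Tcf21 with no interval, and Zeb2 with an accessible inner start and an outermost start that no interval reached. Each is RefSeq sequence of build GRCm38.p6, the assembly behind mm10, of 300 bases from 250 before the start, 5′ to 3′ on the strand of the gene, with CpG dinucleotides in capitals.
Twist1 (chr12:33957421-33957720, plus strand): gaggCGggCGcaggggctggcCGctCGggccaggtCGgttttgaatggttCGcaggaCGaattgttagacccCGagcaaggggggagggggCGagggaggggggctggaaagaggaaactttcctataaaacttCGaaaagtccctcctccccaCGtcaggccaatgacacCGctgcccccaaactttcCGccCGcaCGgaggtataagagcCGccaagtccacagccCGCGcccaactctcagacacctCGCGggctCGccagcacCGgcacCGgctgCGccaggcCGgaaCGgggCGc
Snai1 (chr2:167537945-167538244, plus strand): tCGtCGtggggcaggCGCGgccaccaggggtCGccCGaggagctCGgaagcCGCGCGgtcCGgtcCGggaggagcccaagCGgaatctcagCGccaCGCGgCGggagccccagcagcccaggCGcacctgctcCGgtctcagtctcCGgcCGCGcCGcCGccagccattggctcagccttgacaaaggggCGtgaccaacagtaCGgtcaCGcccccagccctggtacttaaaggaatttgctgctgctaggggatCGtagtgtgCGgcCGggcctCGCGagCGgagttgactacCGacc
Prrx1 (chr1:163313601-163313900, minus strand): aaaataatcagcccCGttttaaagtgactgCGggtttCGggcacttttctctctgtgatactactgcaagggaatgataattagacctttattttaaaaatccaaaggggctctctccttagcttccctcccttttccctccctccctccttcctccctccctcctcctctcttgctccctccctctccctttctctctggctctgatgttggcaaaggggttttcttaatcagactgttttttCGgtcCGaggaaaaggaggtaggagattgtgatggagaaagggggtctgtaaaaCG
Tcf21 (chr10:22820094-22820393, minus strand): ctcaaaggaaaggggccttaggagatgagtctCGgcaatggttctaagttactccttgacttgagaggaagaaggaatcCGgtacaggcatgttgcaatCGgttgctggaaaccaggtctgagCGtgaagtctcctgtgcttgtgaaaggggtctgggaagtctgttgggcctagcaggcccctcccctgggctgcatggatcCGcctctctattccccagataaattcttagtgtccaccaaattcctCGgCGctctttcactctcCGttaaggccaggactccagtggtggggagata
Zeb2, inner start (chr2:45110228-45110527, minus strand): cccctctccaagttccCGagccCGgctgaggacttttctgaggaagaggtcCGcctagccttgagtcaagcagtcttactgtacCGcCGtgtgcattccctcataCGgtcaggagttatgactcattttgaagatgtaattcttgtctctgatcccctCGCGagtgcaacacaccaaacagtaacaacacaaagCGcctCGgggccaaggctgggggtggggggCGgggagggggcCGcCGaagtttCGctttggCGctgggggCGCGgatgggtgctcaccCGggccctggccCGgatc
Zeb2, outermost start (chr2:45117393-45117692, minus strand): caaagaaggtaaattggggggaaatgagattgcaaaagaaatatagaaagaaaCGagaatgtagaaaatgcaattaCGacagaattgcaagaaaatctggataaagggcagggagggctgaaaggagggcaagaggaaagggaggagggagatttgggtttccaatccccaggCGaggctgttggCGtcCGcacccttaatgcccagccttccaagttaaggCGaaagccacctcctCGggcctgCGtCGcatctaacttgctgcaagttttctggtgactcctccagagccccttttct

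These windows differed in CpG content. The observed over expected CpG ratio is the number of CpG times the window length, divided by the product of the C and G counts. It was 0.827 at Twist1 and 0.925 at Snai1, where 27 and 34 CpG stand out as capitals. At Twist2 it was 0.803, at Prrx2 0.756 and at the first start of Ebf1 0.954, although that Ebf1 window was only 36.7% G and C. Prrx1 had 6 CpG and a ratio of 0.36, and Tcf21 had 8 CpG and a ratio of 0.378. Over all 21263 start windows of protein-coding genes, an interval lay within 1000 bp of 81.4% of those with a ratio of at least 0.8, of 66.4% from 0.6 to 0.8, of 41.2% from 0.4 to 0.6 and of 12.7% below 0.4. Twist1, Twist2, Snai1, Prrx2 and the first Ebf1 start thus belonged to classes in which most windows had an interval, and had one. The second Ebf1 start, with a ratio of 0.819, belonged to the class of at least 0.8 as well but had none. Prrx1 had an interval in the class where few did, and Tcf21, in the same class, had none. Among the 4 Zeb2 starts the inner start, with a ratio of 0.69, lay under an interval. The starts between it and the outermost, at 45113253 and 45113279, have windows that share most of their sequence, so they count as 1 place. The same interval lay within 1000 bp of both, at a ratio of 0.42, but covered neither. The outermost start had none within 1000 bp at a higher ratio of 0.509, the nearest piece ending 1338 bp short of it. With so few separate windows and a fixed distance, the order of the ratios at Zeb2 supports no conclusion.

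E-boxes, the sites that Snail, Zeb, Twist and Tcf21 proteins recognise, were present in few of the start windows, a difference that was not tested. The general E-box CANNTG, which reads alike on both strands, was found in 2 of the 12 member windows, against 69.02% of all start windows. These were the windows of Snai1 and of the second Ebf1 start. The 12 windows are not independent: they come from 8 genes, 4 are of Zeb2, and 2 of those share most of their sequence. Counted by gene, 2 of 8 had a CANNTG in any window. Over all genes the share was 60.5% of windows with an interval within 1000 bp and 76.3% of the others. The narrower form CAGGTG, searched on both strands and contained in CANNTG, was found only at Snai1, as CACCTG with its first base 126 bases before the start, against 19.7% of all windows. The letters TATAAA, searched on both strands, were found at Twist1 alone of the 12 and in 12.6% of all windows. A match describes these letters only.

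The Twist genes encode basic helix-loop-helix factors of early mesoderm, neural crest and dermis. Twist1 (chromosome 12, 33957671 to 33959831, 2161 bp) lay almost wholly under 1 interval at 33956578 to 33959732, which covered 95.4% of the gene. That region had a total signal of 36522 (percentile 63.7) and a maximum of 23 (percentile 39.1), reached 258 bp downstream of the start. It was the only interval within 200 kb of Twist1. Twist2 (chromosome 1, 91801461 to 91848034) had an interval of 5191 bp centred on its start, at 91798758 to 91803948. Its total signal was 49016 (percentile 78.2) and its maximum 34 (percentile 65.7), which lay 4 bp upstream of the start. Twist2 held another interval inside the gene, of 5149 bp with its maximum 15342 bp downstream of the start (total 34088, maximum 21). Beyond the gene stood 5 more within 200 kb, none at the end of another protein-coding gene. The closest were 8.82 kb and 22.9 kb above Twist2, with totals of 28883 and 37371. Of its 7 intervals, 6 lay nearer to Twist2 than to any other protein-coding gene, whereas Twist1 had 1.

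The Prrx genes had broad and shallow start intervals, and that of Prrx1 was the widest among the 8 genes with a known start. At Prrx1 (chromosome 1, 163245119 to 163315145, minus strand) an interval of 6293 bp, wider than 95.3% of all intervals, ran from 163309720 to 163316012 over the start. Its total signal of 52258 stood at percentile 80.8 while its maximum of 20 stood at percentile 30.03, and the maximum lay 1560 bp downstream of the start. The mean signal over that interval was 8.30, below the median of 11.2 over the 15225 intervals for which a mean was taken. A second interval inside Prrx1 was weaker (total 19759, maximum 15), and the interval 21.6 kb above the gene likewise (total 18433, maximum 14). At Prrx2 (chromosome 2, 30845064 to 30881251, plus strand) the start interval was 5032 bp wide (percentile 91.2), with a total of 41362, a maximum of 26 and a mean signal of 8.22. Its maximum lay 100 bp downstream of the start. A broad and shallow start interval was not particular to the Prrx genes. That of Twist2 was wider than that of Prrx2, at 5191 bp (percentile 91.9), with a mean signal of 9.44. The interval at the inner Zeb2 start, 3965 bp wide, had a mean of 9.78. Those at Twist1 and Ebf1 had means of 11.6 and 23.5, above the median of 11.2. Prrx2 had 2 further intervals in the gene, and that at 30869102 to 30876843, 7742 bp wide, exceeded the start interval in total signal (84171, percentile 93.2) and in maximum (38). Prrx2 was thus covered over 42.01% of its length, against 10.5% of Prrx1.

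**Figure D1:**
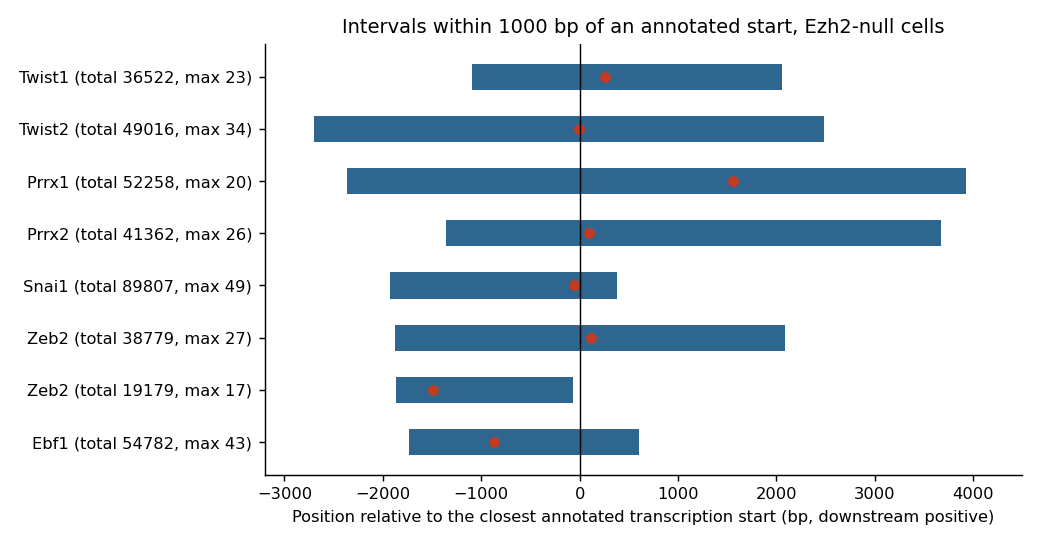
Extent of the intervals within 1000 bp of an annotated transcription start, in bp from the closest start with downstream to the right, for the 7 factor genes that had one (Zeb2 has 2). Bars are intervals, red points the middle of the region of maximum signal, and the totals and maxima beside the names are those of the whole called region in the authors' unit; Prrx1 is the widest at 6293 bp, and the Snai1 interval ends 385 bp downstream of the start.

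The Snail genes encode zinc finger repressors of E-cadherin. Snai1 (chromosome 2, 167538195 to 167542814, plus strand) had the highest gene-end signal of the 10 genes. Its start lay in an interval of 2315 bp, at 167536266 to 167538580, a piece of a called region with a total of 89807 (percentile 94.3) and a maximum of 49 (percentile 87.5). That maximum lay 53 bp upstream of the start, between the CACCTG shown above and the first transcribed base. The other piece of the same region stood 4.34 kb upstream of the gene. A second region covered the 3′ part of Snai1 and the sequence beyond it, from 167539766 to 167547545, with a width of 7780 bp, a total of 79728 and a maximum of 32 that lay 8890 bp downstream of the start, outside the gene. Snai2, the gene of the Slug protein (chromosome 16, 14705852 to 14709395), had 1 interval at 14704855 to 14707658, with a total of 34481 (percentile 60.4) and a maximum of 28 (percentile 52.5) that lay 329 bp from the lower end of the gene. This was the only interval within 200 kb of Snai2.

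The Zeb genes encode repressors with zinc finger clusters and a homeodomain, and both lacked an interval at the outer ends of the gene. Zeb1 (chromosome 18, 5591327 to 5775468, 184142 bp) had no interval over the gene. Over the gene body 66.6% of the 2429 protein-coding genes of 100 kb or longer had at least 1 interval. The nearest interval stood 42.2 kb above Zeb1, at 5817619 to 5821740, with a total of 53023 (percentile 81.4) and a maximum of 40 (percentile 76.2). Zeb2 (chromosome 2, 44983512 to 45117442, minus strand, 133931 bp) had 3 intervals, all near its upper end, where its starts lie. The strongest, at 45108188 to 45112152, covered the inner start shown above, with a total of 38779, a maximum of 27, and that maximum 114 bp downstream of the start. A weaker region (total 19179, percentile 19.5; maximum 17) was split into pieces of 1798 and 208 bp, of which the wider began 68 bp upstream of the closest start and the narrower ended 1338 bp short of the outermost start. Together these intervals covered 4.46% of Zeb2. An interval 4.86 kb below the gene, beyond its 3′ end, had a total of 21815 and a maximum of 28.

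Tcf21 (chromosome 10, 22817263 to 22820143) was the only member other than Zeb1 with nothing over it. The single interval within 200 kb of Tcf21 lay 84.6 kb away, over the end of Tbpl1 (total 29228, maximum 25). On chromosome 10 an interval stood at a gene end of 58.9% of protein-coding genes, so Tcf21 lacked one on a chromosome where most genes had one. Ebf1 (chromosome 11, 44618100 to 45008096, plus strand, 389997 bp) had 1 interval at its first start and none in the rest of the gene, so that 0.155% of Ebf1 was covered. That interval, at 44616370 to 44618702, had a total of 54782 (percentile 82.4) and a maximum of 43 (percentile 80.5), 866 bp upstream of the start. Its mean signal of 23.5 stood at percentile 97.4, against percentiles of 19.7 at Prrx1, 31.4 at Twist2 and 53.4 at Twist1. As listed, Ebf1 thus had a narrow start interval of 2333 bp with a high mean signal, and Prrx1 a wide and shallow one. Whether the Ebf1 interval was cut short, which would raise its mean signal, cannot be told from the list. The second annotated start of Ebf1 had no interval within 1000 bp.

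Over the 7 genes with a gene-end interval, the median of the highest total signal was 49016, against 39334.5 over the 10378 protein-coding genes with one. The median of the highest maximum was 28 over the 7 genes, against 39 over those 10378. The total was above that median at Twist2, Prrx1, Prrx2, Snai1 and Ebf1. The maximum was below its median at 5 of the 7, Twist1 (23), Twist2 (34), Prrx1 (20), Prrx2 (26) and Snai2 (28), and above it at Snai1 (49) and Ebf1 (43). Ranked among the gene ends with an interval, Prrx1 stood at percentile 65.8 by total and 7.82 by maximum. By maximum the others stood at 12.1 (Twist1), 36.8 (Twist2), 17.6 (Prrx2), 22.3 (Snai2), 59.5 (Ebf1) and 72.3 (Snai1). By total they stood at 45.7 (Twist1), 62.3 (Twist2), 53.2 (Prrx2), 42.04 (Snai2), 67.9 (Ebf1) and 85.7 (Snai1).

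**Figure D2:**
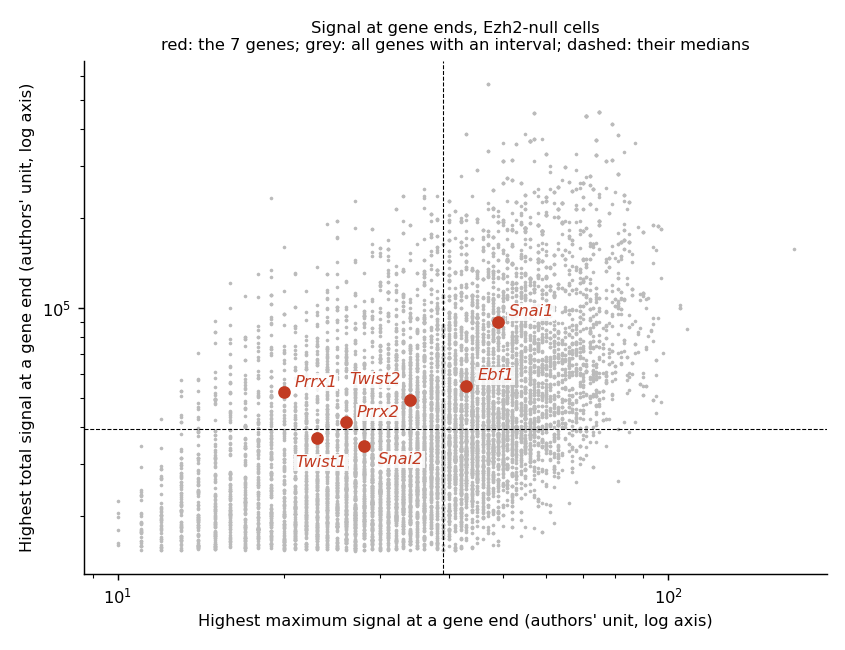
Highest total signal against highest maximum signal at a gene end, both in the authors' unit on log axes, for all genes with a gene-end interval (grey) and the 7 factor genes that had one (red), with dashed lines at the medians of 39334.5 and 39. Snai1 and Ebf1 lie above both medians, and Prrx1 lies furthest left at a maximum of 20.

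The surroundings of the 10 genes differed widely. Within 200 kb of a gene, that is from 200 kb below its lower end to 200 kb above its upper end, Snai1 had 40 intervals and Prrx2 had 30. The others had 7 (Twist2), 5 (Zeb2), 4 (Prrx1), 3 (Zeb1 and Ebf1) or 1 (Twist1, Snai2 and Tcf21). The median was 3.5 over the 10 genes, against 5 over all protein-coding genes, of which 82.8% had at least 1. Within 100 kb both medians were 3. Snai1 stood at percentile 99.0 of all protein-coding genes and at 99.6 of those on chromosome 2, and Prrx2 at 96.2 and 95.2. Zeb2 is on the same chromosome and stood at percentile 36.3 there. Snai1 and Prrx2 together accounted for 73.7% of the 95 intervals near the 10 genes.

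**Figure D3:**
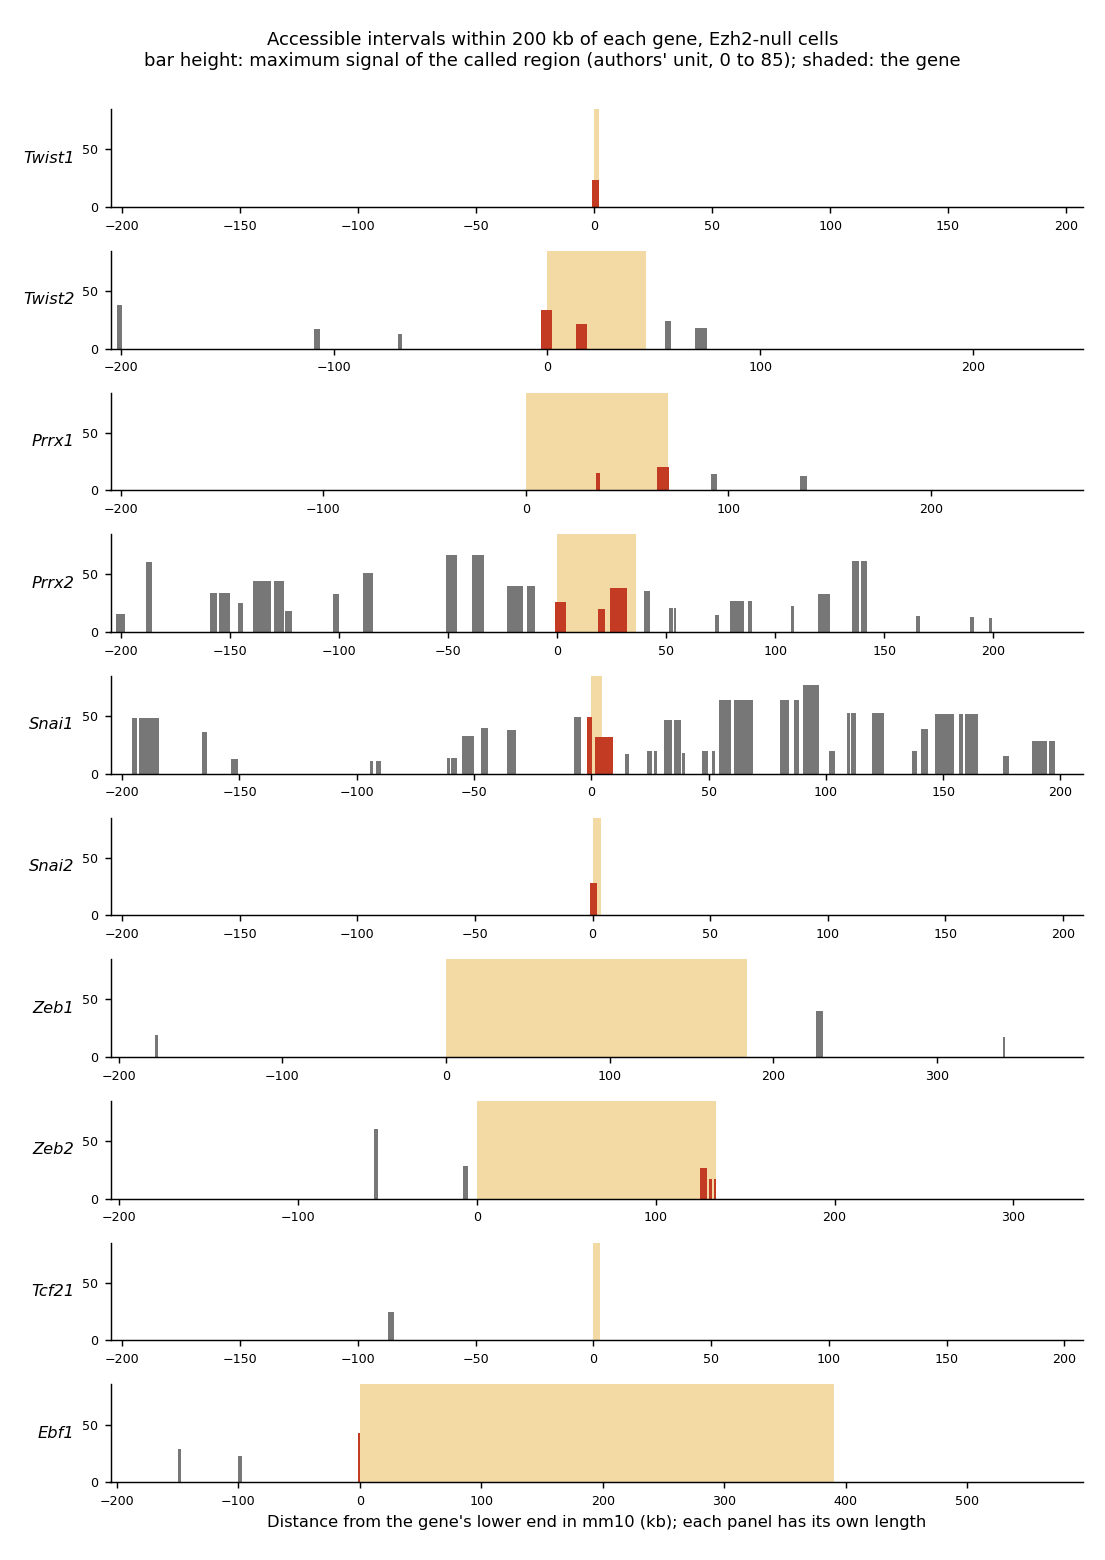
Intervals from 200 kb below to 200 kb above each of the 10 genes, in kb from the lower end of the gene in mm10, with bar height giving the maximum signal of the called region in the authors' unit. The gene is shaded, intervals over it are red and others grey, and bars are drawn at least 1.2 kb wide; Snai1 and Prrx2 lie in dense stretches of 40 and 30 intervals, and Twist1, Snai2 and Tcf21 have 1 each.

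Many of the intervals near Snai1 and Prrx2 belonged to large called regions that lay nearer to other genes. The 3 with the highest total signal near any of the 10 genes were a region of 4 pieces closest to Ube2v1, from 167592826 to 167626571 on chromosome 2 (total 252746, maximum 64), a region of 3 pieces closest to Cebpb, which encodes the C/EBPβ factor, from 167684660 to 167703119 (total 190094, maximum 52), and a region of 2 pieces closest to 1700001O22Rik, from 30705549 to 30719507 (total 169588, maximum 44). The nearest piece of the first lay 50.01 kb from Snai1, that of the second 141.8 kb from Snai1, and that of the third 125.6 kb from Prrx2. Counted as called regions, Snai1 had 24 and Prrx2 had 23. Closest to Snai1 itself were 8 of its 40 intervals, among them a region split in 2 at 26.3 and 30.5 kb above the gene (total 70100, maximum 47). Closest to Prrx2 itself were 3 of its 30, all over the gene.

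Of the 10 genes, 8 stood in gene-poor sequence. At most 2 other protein-coding genes lay within 200 kb of Twist1, Twist2, Prrx1, Snai2, Zeb1, Zeb2, Tcf21 and Ebf1, which is so for 13.6% of protein-coding genes, and Zeb1 had 0. Prrx2 had 9 and Snai1 had 7, against a median of 8 over all protein-coding genes. Above Zeb2 the next protein-coding gene in the table, Acvr2a, began 3697 kb away. Among the genes with at most 2 such neighbours, 34.2% had a gene-end interval, and 5 of the 8 factor genes did. Set beside genes whose number of neighbours differed by at most 1, Twist2 stood at percentile 91.1 for intervals within 200 kb, Zeb2 at 83.7, Zeb1 at 78.4, Prrx1 at 68.6, Ebf1 at 57.5, and Twist1, Snai2 and Tcf21 at 27.5 each. Prrx2 and Snai1 remained high on this scale, at 97.3 and 99.4. The windows include the gene itself and so grow with gene length, which was not matched. Ebf1, Zeb1 and Zeb2 are the longest of the 10 genes, at 389997, 184142 and 133931 bp.

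**Figure D4:**
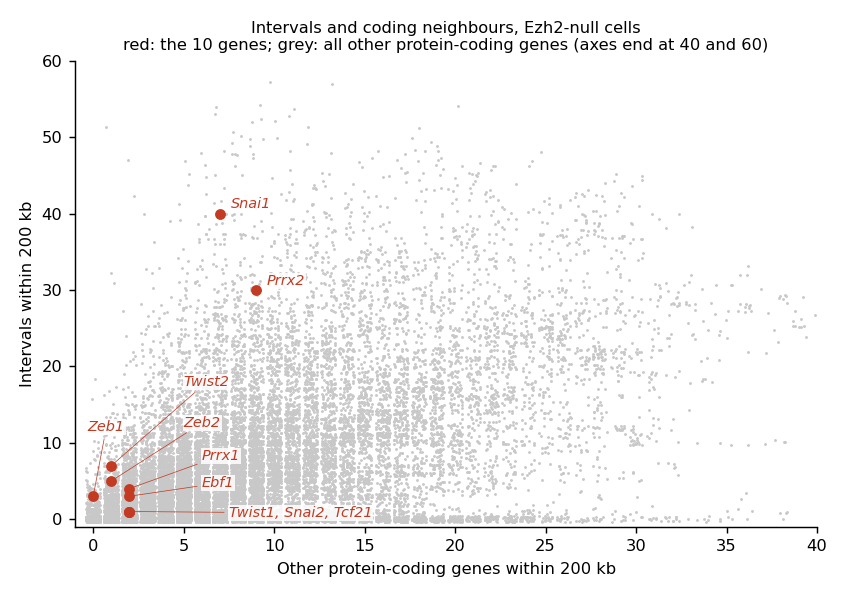
Number of intervals within 200 kb against the number of other protein-coding genes within 200 kb, for the 10 factor genes (red) and all other protein-coding genes (grey, spread slightly to separate equal values, axes ending at 40 and 60). The 8 genes other than Snai1 and Prrx2 have at most 2 neighbours and at most 7 intervals; Snai1 and Prrx2 lie at 40 and 30 intervals.

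Chromosomes differed in how densely intervals were called on them. Intervals per Mb were 13.9 on chromosome 2 (Prrx2, Snai1 and Zeb2), 20.01 on chromosome 11 (Ebf1), 10.7 on chromosome 10 (Tcf21), 8.55 on chromosome 1 (Twist2 and Prrx1), 5.41 on chromosome 16 (Snai2), 5.28 on chromosome 12 (Twist1) and 5.17 on chromosome 18 (Zeb1). Gene ends carried an interval at 45.01% of genes on chromosome 18 and at 44.9% on chromosome 16. Snai2 had an interval and Zeb1 none on these chromosomes of like share. The part of chromosome-wide density in these counts was not tested. The genes next to the 10 factor genes, 2 on either side, had a gene-end interval at 29 of 40 (72.5%), against 47.4% of all protein-coding genes. All 4 around Zeb1 (Zfp438, Svil, Arhgap12 and Kif5b) had one, as did 3 of 4 around Tcf21, whereas of 4 around Twist1 only Twistnb did. These neighbours need not be close. Those of Zeb1 lay 249 to 472 kb away, Rps12 lay 965 kb from Tcf21, and Orc4 lay 3785 kb from Zeb2. Some share a called region, as Rnf114 and Spata2 below Snai1 did (total 44242), so the 40 are not all separate.

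Genes that work with these factors were compared as lists by the same count at gene ends. Dimer partners and cofactors, which include the E proteins that pair with Twist and Tcf21, the Id inhibitors and the corepressors used by Snail and Zeb, had an interval at 17 of 18 genes (94.4%), led by Tcf3 (total 326540), Id1 (158441) and Ctbp1 (129686). Zfp423 alone had none at a gene end, although it had an interval within the gene. Mesenchymal effector genes had one at a gene end at 16 of 20, with Col1a1 (108721) and Tnc (86038) among the highest. Cd44, Mmp2, Pdgfra and Thy1 had none there, although Mmp2 had an interval within the gene and Pdgfra one at an annotated start inside it. Upstream signals had one at 14 of 20, with Rela (115737), Tgfb3 (76031) and Gsk3b (64071) highest and Bmp2, Bmp4 and Hif1a first in the alphabet among those with none, although Hif1a had one at an annotated start inside the gene and Bmp4 one within the gene. Paralogs and relatives of the 10 factors had one at 9 of 16 (56.2%), led by Scx (135859), Ebf4 (114097) and Tcf15 (44895). Ebf3, Gsc and Hand1 were the first with none, although Ebf3 had an interval at an annotated start inside the gene. Epithelial genes, which Snail and Zeb proteins repress in other settings, had one at 5 of 20, namely Tjp3 (161601), Crb3 (112412), Cldn4 (31344), Grhl1 and Krt8. Cdh1, Cdh3 and Cldn3 had none. All of these stand beside the same 47.4% of all protein-coding genes, and their differences were not tested.

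**Figure D5:**
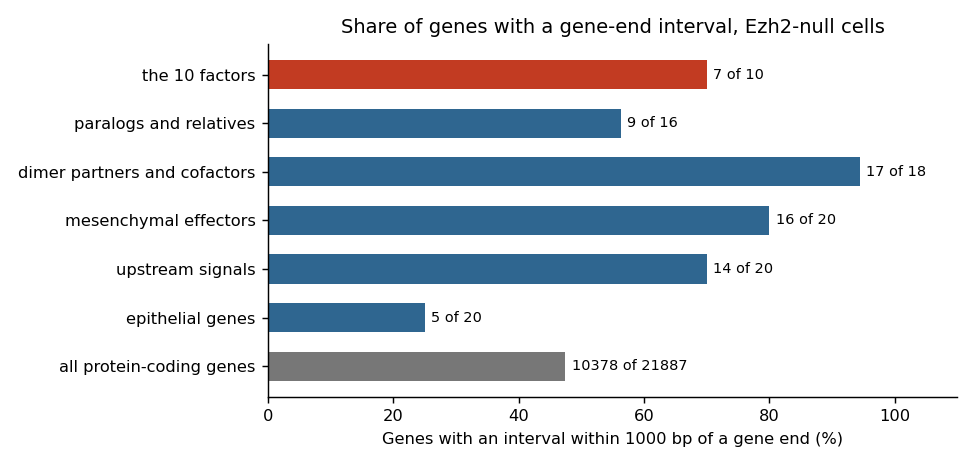
Percentage of genes with an interval within 1000 bp of a gene end, for the 10 factor genes, 5 lists of related genes and all protein-coding genes, with the counts beside the bars. Dimer partners and cofactors have the highest share (17 of 18) and epithelial genes the lowest (5 of 20).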

How the data were processed

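The 10 genes and the related lists were chosen with earlier results of these data known. Bowtie2 2.2.9, deepTools, SEACR and mm10 appear in the submitters' processing notes, without roles, order or settings. Whether duplicates were removed, reads shifted for the transposase, a control used or replicates pooled is not stated in any source used here. The deposited list has no header. Column 4 was read, in the order SEACR writes, as total signal, a score in the authors' own unit, and column 5 as maximum signal, the height of the coverage as deposited by the authors with no stated normalization. No file had counts, so no interval based on depth was computed.

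Gene positions, starts and start windows came from RefSeq tables of GRCm38.p6. Positions are 1-based. A gene had an interval where at least 1 bp overlapped the 1000 bp on either side of a gene end or annotated start, or the gene itself. Starts were available for 17492 of 21887 protein-coding genes. Mean signal, total over width, was taken only where a region appeared as 1 interval that overlapped its maximum. The total also had to be no larger than the maximum times the width. All 10 genes were named, with 2 protein-coding genes on either side, 3 strongest nearby regions, and in each list the 3 genes of highest total signal and the first 3 without an interval. A gene that this rule takes is not reported here. Alternatives changed windows, overlap, distance and the regions admitted. Python 3.11.15, numpy 2.4.6, pandas 2.3.3 and matplotlib 3.10.9 were used, and the interval lookup was tested on simulated data.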

Additional observations from a re-analysis of the deposited data

How the results depend on the processing

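The 7 genes with a gene-end interval were the same 7 with windows of 500 bp, with an overlap of at least 200 bp, above the median total signal and among intervals that overlap their own maximum. The shares of all protein-coding genes were 45.9%, 46.9%, 32.7% and 45.2%, in that order. With windows of 2500 bp Zeb2 joined the 7 genes, and the share of all protein-coding genes was 50.2%. Above the upper quartile of total signal, which admits fewer regions by construction, 4 of the 10 genes kept a gene-end interval (Twist2, Prrx1, Snai1 and Ebf1), against 19.6% of all protein-coding genes. The same 4 kept one at a start, against 18.6% of genes with a known start, and 5 had one over the gene, against 21.1% of all. There the lists stood at 2 of 16 paralogs and relatives, 10 of 18 dimer partners and cofactors, 7 of 20 mesenchymal effectors, 2 of 20 epithelial genes and 8 of 20 upstream signals. Above the median total signal, epithelial genes stood at 3 of 20, against 32.7% of all protein-coding genes. The alternatives for these lists were chosen after seeing the data. The median number of intervals near the 10 genes was 2 within 50 kb and 3 within 100 kb, equal in both to that of all protein-coding genes, unlike the 3.5 against 5 within 200 kb. Above the median total signal it was 1.5 within 200 kb, against 2 over all protein-coding genes. The median percentile of the 7 gene-end regions among all called regions was 78.2 by total and 52.5 by maximum signal. Ranks among gene ends with an interval, given above, were lower. No paired analysis was possible because the list holds no column per replicate. Leaving out a replicate was not possible for the same reason.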

Other observations

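A set of microRNA genes related to these factors or to epithelial or mesenchymal tissue was looked up in the same list. The set was picked after the gene results had been seen. The miR-200 family, which silences Zeb1 and Zeb2 transcripts in epithelial cells, had no interval within 1000 bp of any of its 5 hairpins, while 21.2% of 1005 mouse hairpins had one. The 5 hairpins form a cluster on chromosome 4 and another on chromosome 6, so they are not 5 separate observations. The nearest interval stood 7105 bp from Mir200b and 7870 bp from Mir200a on chromosome 4 (total 25924, maximum 15), and 4706 bp from Mir141 on chromosome 6 (total 23324, maximum 33). The miR-199a genes, which lie within Dynamin gene loci and are known from mesenchymal tissue, both had an interval over the hairpin, with totals of 46765 and a maximum of 58 at Mir199a-2 and of 42128 and a maximum of 38 at Mir199a-1. Mir203, another microRNA of epithelia, also had one (total 42227, maximum 20). The other hairpins looked up had no interval within 1000 bp: Mir214, clustered with Mir199a-2 (nearest at 4535 bp), Mir34a (17788 bp), Mir10b (19943 bp), Mir34c (92798 bp), Mir34b (93326 bp) and Mir205 (273775 bp). These values were not tested.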
